A study of Mus musculus with 4 samples.

Results

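The miR-302/miR-367 cluster is a group of microRNA (miRNA) genes transcribed together, and its mature products were read here on the 4 arrays of a series on neural stem and progenitor cells (NSPCs) made from mouse embryonic stem cells (ESCs). Members were taken by name, as every mouse miRNA on the array named miR-302a, miR-302b, miR-302c, miR-302d or miR-367, with any strand mark. There were 8 of 611 mouse miRNAs. These were the strands miR-302a, miR-302b, miR-302c, miR-302d and miR-367, and the partner strands miR-302a*, miR-302b* and miR-302c*, where the star is the older mark for the less abundant strand of a precursor. The array carries 26 probes for them, 14 for the 5 strands without a star and 12 for the 3 star strands.

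The cells grew as floating spheres (neurospheres). Each sphere culture mixed cells overexpressing (OE) the transcription factor NFIA with control cells, and fluorescence-activated sorting took the 2 kinds apart. Secondary neurospheres were at passage 1 (day 12 after the embryoid body stage) and primary neurospheres at passage 0 (day 6). The 4 groups, with 1 array each, were secondary neurospheres titled NFIA OE, secondary neurospheres titled control, primary neurospheres titled NFIA OE and primary neurospheres titled control. The source names contradict these titles at both passages, calling the cells titled control the NFIA OE line and the cells titled NFIA OE wild type. Groups follow the titles here, and every title difference would turn its sign if the source names are right. The ESC line and what drives the NFIA transgene are not given in the sources used here. Passage and days in culture cannot be told apart, and no group has a replicate. The 2 arrays of a passage are fractions sorted from mixed spheres, and the labels name no separate cultures, so they are not independent replicates of that passage.

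miRNAs are short RNAs that guide Argonaute proteins to partly complementary messenger RNAs, chiefly through the seed, bases 2 to 8 from the 5′ end. The miR-302/miR-367 cluster is best known from pluripotent cells, where the pluripotency factors Oct4 and Sox2 drive it, and in mouse it is most abundant in the epiblast and in primed pluripotent cells. Most of its miR-302 strands carry the same seed as part of the miR-290/miR-295 cluster, the main miRNA cluster of mouse ESCs, and are known to favour cell cycle progression and to hold back neural differentiation in the early embryo.

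The 5 hairpins of the cluster lie within 580 bases of the plus strand of mouse chromosome 3, at chr3:127545228-127545807 (GRCm38.p6, RefSeq). They lie inside the span of the long non-coding RNA gene Gm51018 (chr3:127545089-127546903, plus strand) and inside the span of Larp7, a protein-coding gene on the minus strand (chr3:127536714-127553349). The annotation used here gives no exons, so whether they lie in introns is not stated. The hairpins are shown in genomic order, because they show how strands with almost the same sequence come from 1 short stretch. Capitals mark the mature strands that the RefSeq table lists.
Mir302b (chr3:127545228-127545301): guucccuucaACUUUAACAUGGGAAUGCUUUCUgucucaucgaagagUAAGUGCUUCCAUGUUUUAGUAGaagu
Mir302c (chr3:127545363-127545430): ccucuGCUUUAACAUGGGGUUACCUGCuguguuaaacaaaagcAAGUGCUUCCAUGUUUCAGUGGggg
Mir302a (chr3:127545496-127545564): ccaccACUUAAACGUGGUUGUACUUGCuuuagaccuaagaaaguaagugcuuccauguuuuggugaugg
Mir302d (chr3:127545624-127545689): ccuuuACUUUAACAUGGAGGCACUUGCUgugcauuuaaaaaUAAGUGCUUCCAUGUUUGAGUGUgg
Mir367 (chr3:127545733-127545807): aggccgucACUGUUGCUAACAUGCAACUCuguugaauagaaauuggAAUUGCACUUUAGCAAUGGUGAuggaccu

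The mature strands the results turn on are shown with the seed in capitals, to show which of them share it. The names on the array map to these 3′ arms by their miRBase names. Of the 8 members 7 matched a mature entry, and miR-302a is named only.
miR-302b: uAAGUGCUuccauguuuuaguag
miR-302d: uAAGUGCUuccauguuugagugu
miR-302c: aAGUGCUUccauguuucagugg
miR-367: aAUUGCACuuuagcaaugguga
miR-302b and miR-302d share their first 17 bases and 20 of 23 positions. miR-302c, as RefSeq gives it, starts 1 base later, so its bases 2 to 8 are shifted by 1 base against theirs, and from there 20 of 22 positions match miR-302b. Of 1679 mouse mature strands listed there, 5 carry the miR-302b seed and 1 carries the miR-302c seed. The count leaves out miR-302a, whose 3′ arm has no entry there. The Mir302a hairpin above does hold the 17 leading bases that miR-302b and miR-302d share. miR-367 has a different seed, found in 6 mature strands. Probe sequences are not in the files used here, so how far a probe of one miR-302 strand also binds another was not tested, and the 4 miR-302 strands are not independent readings.

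A probe was counted as well above background on an array when the scanner software flagged at least 50% of its spots so, and 1 such probe was enough for its miRNA. By this rule 3 of the 8 members were well above background on the secondary array titled NFIA OE, 1 on the secondary array titled control, and 5 on each primary array. The arrays as a whole had 207, 209, 220 and 186 miRNAs well above background in the same order, out of 650 names. The primary array titled control thus had the lowest total and yet all 5 strands. Of the 5 strands counted on both primary arrays, 2 were not counted on the secondary array titled NFIA OE, where 10.6% of the 179 miRNAs counted on both primary arrays were not, and 4 were not on the secondary array titled control, where 13.4% were not. Neither secondary array counted miR-302a and miR-302c, as for 9.5% of the 179. The 3 star strands had 0 of 237 spots well above background over the 4 arrays, with probe means from -5.13 to 3.905 intensity units. The median negative-control signal was 2.92 to 3.72 units.

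Intensities in the following paragraphs are the scanner's processed signal, background-subtracted and not scaled between arrays, as the mean ± SD over spots of 1 probe. Spots of an array are technical repeats, so this SD holds no biological spread. miR-302b was read by 4 probes. Its brightest probe had 33.0 ± 2.79 units on the secondary array titled NFIA OE and 21.9 ± 2.70 on the secondary array titled control, against 135 ± 8.11 on the primary array titled NFIA OE and 127 ± 8.89 on the primary array titled control (SD, n = 5 spots each). Both secondary arrays were low and both primary arrays high, with no overlap of spots, since the highest secondary spot was at 37.2 units and the lowest primary spot at 118. The next probe had 12.6 and 6.96 units on the secondary arrays (titled NFIA OE, titled control), where it was not well above background, against 59.7 and 60.1 on the primary arrays.

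miR-367, the strand with its own seed, was read by 2 probes with 9 to 10 spots kept each. The brighter one had 32.3 ± 3.80 units on the secondary array titled NFIA OE and 22.5 ± 3.54 on the secondary array titled control (SD, n = 9 spots each), against 162 ± 7.57 on the primary array titled NFIA OE and 137 ± 9.35 on the primary array titled control (SD, n = 10 spots each). On the secondary array titled control 4 of its 19 spots were well above background over both probes, so the strand was not counted there, while 18 of 18 were on the secondary array titled NFIA OE. The rule on the share of spots decided this on the control-titled array. There its brighter probe (22.5 units, 3 of 9 spots) was no dimmer than the miR-302b probe that was counted (21.9 units, 3 of 5 spots). The scanner's own call passed both strands on that array. The order of miR-367 over the arrays was that of miR-302b in passage, with both primary arrays far above both secondary ones.

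miR-302d had 19.9 ± 5.67 units on the secondary array titled NFIA OE and 12.9 ± 3.93 on the secondary array titled control, against 105 ± 3.04 and 86.0 ± 6.59 on the primary arrays titled NFIA OE and control (SD, n = 6 spots each). It was well above background in 3 of 6 spots of this probe on the secondary array titled NFIA OE and in 0 of 6 on the secondary array titled control. miR-302a had 17.1 ± 4.32 and 10.1 ± 3.58 units on the secondary arrays titled NFIA OE and control (SD, n = 10 and 8 spots), against 78.6 ± 5.32 and 71.0 ± 5.86 units on the primary arrays titled NFIA OE and control (SD, n = 10 spots each). Neither secondary array counted it, although 2 of 20 spots on the secondary array titled NFIA OE were well above background. miR-302c, the dimmest strand, had 5.92 ± 4.29 and 6.26 ± 2.52 units on the secondary arrays titled NFIA OE and control, against 26.2 ± 3.58 and 26.8 ± 4.56 on the primary arrays titled NFIA OE and control (SD, n = 6 spots each). For each of these probes the highest secondary spot lay below the lowest primary spot, and the closest case among these brightest probes was miR-302c, at 9.82 against 17.7 units.

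**Figure D1:**
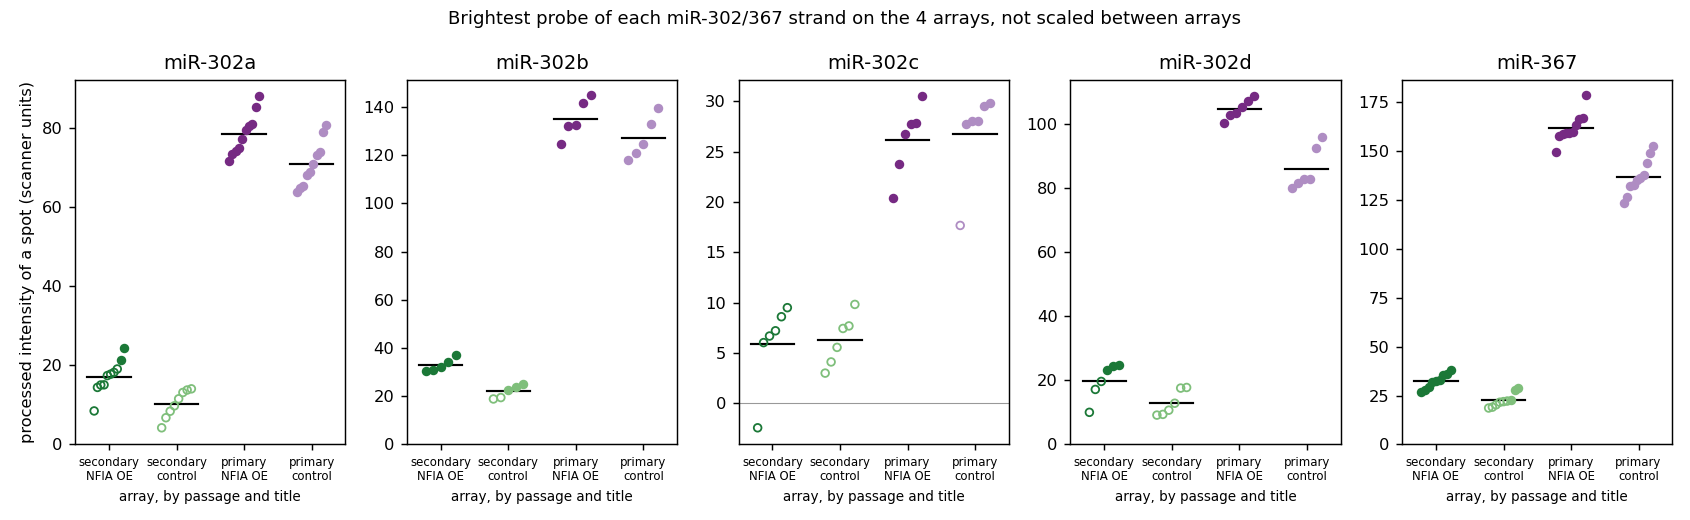
Processed intensity of single spots (scanner units, linear axes, with a grey line at 0, not scaled between arrays) for the brightest probe of each of the 5 strands on the 4 arrays, in panels with axes of their own. Filled points are spots well above background, open points are not, and black lines are means. In each panel all spots of both secondary arrays lie below all spots of both primary arrays, at up to 37.9 units in the miR-367 panel against 123 and more.

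Over all 14 probes of the 5 strands, well above background or not, 12 had both secondary means below both primary means. Of all 1857 probes on the array 300 did, or 16.2%. The star-strand probes, none well above background, did so in 7 of 12 cases, so at intensities near 0 this order alone tells little. The 9 probes that were well above background on both primary arrays were chosen for being high there, and 9 of 9 had this order with and without scaling, as did 64.5% with scaling and 21.7% without of the 299 such probes on the array. The brightest miR-302b probe, the 1 of these 9 well above background on all 4 arrays, had a primary mean 4.78 times its secondary mean before scaling.

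For differences, intensities were expressed as log2 relative to the array's 75th percentile, taken over probes well above background on all 4 arrays. These percentiles were 369, 443, 261 and 167 units on the secondary arrays titled NFIA OE and control and the primary arrays titled NFIA OE and control. Scaling therefore shifts every miRNA toward lower values in secondary neurospheres. The test was limma on the 153 miRNAs well above background on all 4 arrays, with passage and title as additive terms and a call at a Benjamini-Hochberg adjusted p under 0.05. Only 1 residual degree of freedom per miRNA was left, and all miRNAs were judged against 1 pooled SD of 0.29. Such p-values count the 2 sorted fractions of a passage as 2 arrays, measure the spread between these arrays alone and are too small if the fractions share a culture, and in bulk samples fewer cells of a type and less RNA per cell cannot be told apart.

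miR-302b was the member that entered this test, through 1 probe and 5 spots. Its levels were -3.48 and -4.34 log2 units on the secondary arrays titled NFIA OE and control, against -0.95 and -0.40 on the primary arrays titled NFIA OE and control. It was 9.42-fold lower in secondary neurospheres (log2 difference -3.24, SE 0.29, limma adjusted p = 7.65e-19, from 2 arrays on each side) and ranked 1 of 153 from the low end, ahead of miR-541 at -1.99 and miR-410 at -1.93. That SE comes from the pooled SD, is the same for every miRNA tested and does not measure the spread of miR-302b itself. The passage difference of miR-302b was -2.53 in the pair titled NFIA OE and -3.94 in the pair titled control. These lie 1.41 apart, a spread that the pooled SE of 0.29 understates, so the adjusted p is too small for miR-302b. In that test 45.8% of the miRNAs were called, 32.7% lower and 13.1% higher, with the median miRNA at -0.39, so calls were common. Relative to the median miRNA its difference was -2.85.

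The level of miR-302b on the secondary array titled control was the lowest of any probe counted there. The adjusted p was 0.0672 without that array (difference -2.81, passage as the only term) and 0.0655 with median centring of the arrays (-2.76), so the call ended in both. Median centring left 0 of 153 miRNAs called by passage by limma (44 at an unadjusted p under 0.05), those named further on included. With normexp background correction, whose offset of 50 units exceeds both secondary signals, the difference was -1.42 and still called.

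For the other 4 strands a difference can be given as a bound. The dim side was set, on each secondary array, to the dimmest signal that still counted as well above background, or to the probe's own signal where that was higher, and averaged. On the secondary array titled control that dimmest signal was the brightest miR-302b probe, at 21.9 units, so the bounds are not independent of miR-302b. The bright side was the mean of the primary arrays. miR-367 was at least 10.1-fold lower in secondary neurospheres, miR-302d at least 4.68-fold, miR-302a at least 4.18-fold and miR-302c at least 2.50-fold. A bound grows with the height of the primary signal above that dimmest signal, so the bounds do not rank the strands. Before scaling, primary over secondary means were 5.45 and 5.51 for the miR-367 probes and 5.82 and 8.19 for miR-302d. They were 5.51 and 5.70 for miR-302a and 4.35 for miR-302c, with secondary signals mostly not well above background. miR-367 and miR-302d were measured on 1 of the 2 secondary arrays, miR-302a and miR-302c on 0 of 2. When miRNAs well above background on at least 1 array entered the same fit, 252 in all, the limma adjusted p for these strands was 0.00187 to 0.00211, with 27% of all 252 called lower. These strands entered that fit through their primary signal, so their p-values stand beside the bounds as a description. Without scaling the bounds were smaller, at log2 differences of -2.38 for miR-367, -1.27 for miR-302d, -1.11 for miR-302a and -0.37 for miR-302c, against -3.33, -2.23, -2.07 and -1.32 with it.

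Within each title the same direction was seen. In the pair titled control miR-302b was 15.4-fold lower at passage 1 (log2 -3.94), and the bounds were 14.5-fold for miR-367, 5.37-fold for miR-302d, 5.04-fold for miR-302a and 3.23-fold for miR-302c. In the pair titled NFIA OE miR-302b was 5.78-fold lower (-2.53), miR-302d 7.44-fold (-2.90) and miR-367 7.01-fold (-2.81), and the bounds were 3.48-fold for miR-302a and 1.94-fold for miR-302c. At least 2-fold lower at passage 1 were 25.6% of the 160 miRNAs measured in the control-titled pair (10% at least 2-fold higher) and 17% of the 188 measured in the other pair (5.32% higher), with medians of -0.41 and -0.39. A pair of single arrays has no test, and whether the passage difference of miR-302b differs between titles was not tested, because the additive fit takes that difference as residual.

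**Figure D2:**
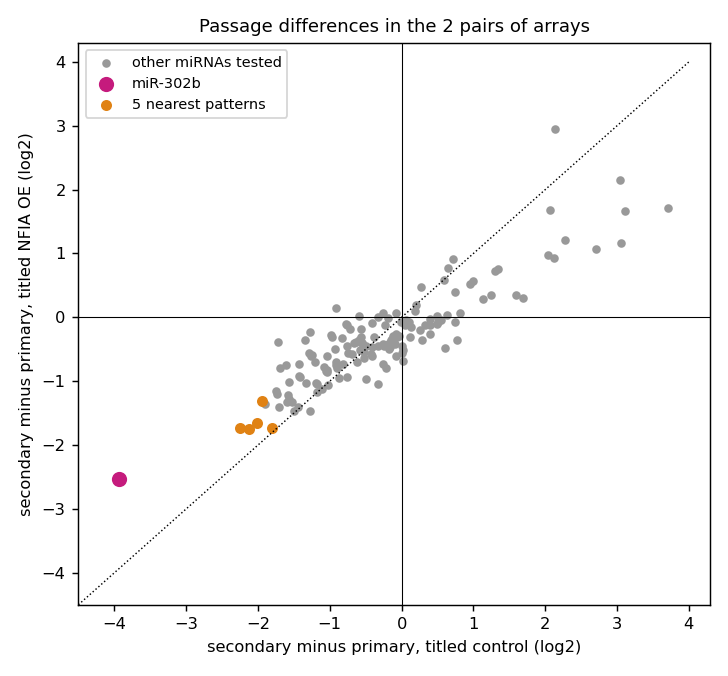
Difference between secondary and primary neurospheres (log2 of scaled intensity) in the pair titled NFIA OE (vertical) against the pair titled control (horizontal) for the 153 miRNAs tested, with miR-302b in pink and the 5 miRNAs nearest to it in pattern in orange. The dotted line marks equal differences. miR-302b lies apart at -2.53 and -3.94.

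The authors' deposited table, holding 1 value per miRNA over all its probes, gives each of the 5 strands without a star a value on each array. That value is not a sum of probe means. On the primary array titled NFIA OE the scanner's total for miR-302b was 63.9 units, against 135 for its brightest probe. Probes near the negative controls are included, so miR-302b and miR-367 are not on the same footing in that table. There miR-367 stood at 1.25 and 0.764 on the secondary arrays titled NFIA OE and control, against 5.59 and 8.14 on the primary arrays titled NFIA OE and control. miR-302b stood at 0.471 and 0.284 on the secondary arrays titled NFIA OE and control, against 1.88 and 3.16 on the primary arrays titled NFIA OE and control. On these values, with their own scaling, the passage difference of miR-302b was -2.74 and called, while the median miRNA moved to 0.27. The star strands have no value in that table.

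Title differences stayed under 2-fold where measured, and in the primary pair their sign depended on the scaling. In the primary pair, where all 5 strands were measured, the array titled NFIA OE was lower for miR-302c by a log2 difference of -0.68, miR-302b -0.60, miR-302a -0.47, miR-367 -0.40 and miR-302d -0.31. None (0 of 5) reached 2-fold, which 3.91% of the 179 miRNAs measured in that pair did on the low side and 5.03% on the high side. All 5 stayed below 0 with scaling on all probes, normexp, quantile normalization and the authors' processed values. Without scaling 4 of 5 turned above 0 (-0.03 for miR-302c, 0.04 for miR-302b, up to 0.34 for miR-302d).

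**Figure D3:**
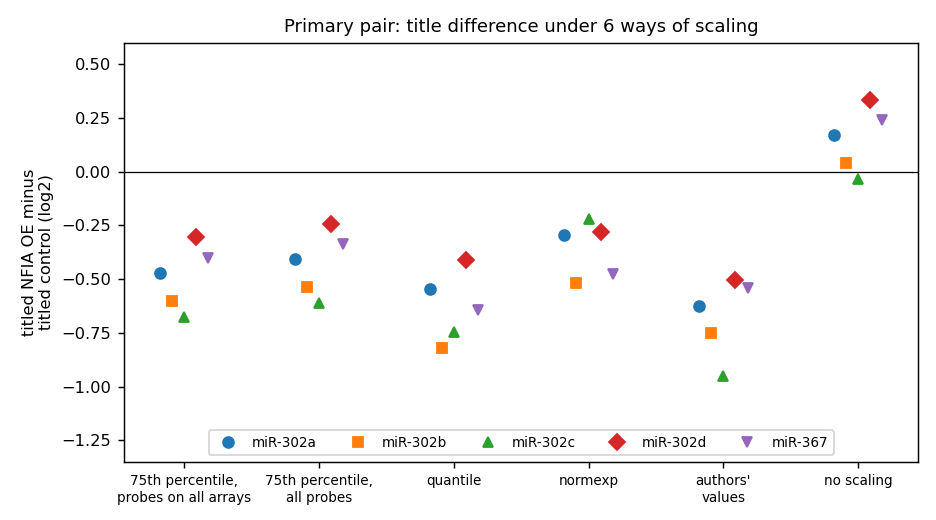
Log2 difference between the primary array titled NFIA OE and the primary array titled control for the 5 strands under 6 ways of scaling the arrays or correcting background. Points lie between -0.95 and -0.22 in the 5 settings that scale the arrays and between -0.03 and 0.34 without scaling.

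In the secondary pair miR-302b was 1.81-fold higher on the array titled NFIA OE (log2 0.85), by its 1 probe measured on both, and 0.16 to 0.73 under the other settings. In that pair 3.59% of the 195 miRNAs measured were at least 2-fold higher and 1.03% at least 2-fold lower. miR-367 and miR-302d were well above background on that array alone, at least 1.57-fold and 1.09-fold higher, and miR-302a and miR-302c on neither. Over both passages the title difference of miR-302b was 0.15 (SE 0.29, limma adjusted p = 0.920, from 2 arrays on each side) and was not called. By title 2.61% of the 153 miRNAs were called, 1.31% each way. One of those called higher was miR-199a-3p (2.05), from the list of mesenchymal, muscle and endothelial markers. In the authors' deposited table that list's 8 members summed to 16.99 and 3.66 on the secondary arrays titled NFIA OE and control. On the primary arrays titled NFIA OE and control they summed to 10.46 and 3.65. Most of each sum was miR-199a-3p itself (13.3, 2.82, 8.31 and 2.73 in that order), and miR-214 was the only other member counted on any array. The part of this list in the title values was not tested. The sign of that 0.15 turned to -0.012 with the authors' processed values, -0.084 with quantile normalization and -0.23 with normexp.

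The miRNAs with the same seeds were followed as a comparison, chosen by sequence. The miR-302b seed is shared on the array by miR-291a-3p, miR-294 and miR-295 of the miR-290/miR-295 cluster, and the miR-367 seed by miR-25, miR-32, miR-92a, miR-92b and miR-363. The seed of miR-17, a proliferation-linked miRNA, is that of miR-302b moved by 1 base. Capitals again mark the seed.
miR-291a-3p: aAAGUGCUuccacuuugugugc
miR-294: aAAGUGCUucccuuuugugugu
miR-295: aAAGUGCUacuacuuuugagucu
miR-92a: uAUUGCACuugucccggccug
miR-363: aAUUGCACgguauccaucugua
miR-17: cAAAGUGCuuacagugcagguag

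Of the 14 members of the miR-290/miR-295 cluster on the array, 4 and 0 were well above background on the secondary arrays titled NFIA OE and control, against 6 and 5 on the primary arrays titled NFIA OE and control. None (0 of 14) was measured on all 4 arrays. The 5 counted on both primary arrays were at least 13.9-fold (miR-291a-3p), 13.3-fold (miR-292-3p), 12.3-fold (miR-294), 11.8-fold (miR-295) and 9.04-fold (miR-293) lower in secondary neurospheres. These 5 were chosen for being high on the primary arrays. Their bounds were computed with scaling alone, which shifts secondary values down. The cluster's summed value in the authors' deposited table was 4.97 and 2.64 on the secondary arrays titled NFIA OE and control, against 31.8 and 38.6 on the primary arrays titled NFIA OE and control. In the same table the 8 miR-302/miR-367 members summed to 2.60 and 1.57 on the secondary arrays titled NFIA OE and control, against 11.6 and 17.6 on the primary arrays titled NFIA OE and control. Both clusters thus read lower at passage 1, and of the 14 names 4 (miR-291a-5p, miR-293*, miR-294* and miR-295*) had no value on any array. The part that the share of remaining pluripotent cells plays in the miR-302/miR-367 values was not tested.

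The relatives outside these clusters could be tested on all 4 arrays in most cases. Of all 153 miRNAs tested 32.7% were called lower by passage, with the median miRNA at -0.39. All 5 members of the miR-17 seed family on the array (miR-17, miR-20a, miR-20b, miR-93 and miR-106b) were called lower in secondary neurospheres, with a median of -0.94, from miR-17 at -1.18 (limma adjusted p = 0.000489) to miR-106b at -0.85 (0.0128). Relative to the median miRNA 2 of the 5 were called, and without scaling 3 of 5 turned above 0 and 0 were called. Of the 4 tested relatives of miR-367, 3 were called lower, miR-92a at -1.46, miR-92b at -1.05 and miR-25 at -1.04, while miR-32 was at -0.28 (adjusted p = 0.457). All 3 kept their sign in 10 of 10 alternatives, but miR-92a kept its call in 7, miR-25 in 5 and miR-92b in 1, and 0 of the 4 were called without scaling. miR-92b was at -0.39 in the pair titled NFIA OE and at -1.71 in the pair titled control, a difference that was not tested. miR-363 was counted on both primary arrays and on 0 of 2 secondary ones, and was at least 4.52-fold lower in secondary neurospheres (log2 -2.18, or -1.23 without scaling). Its value in the authors' deposited table was 0.346 and 0.307 on the secondary arrays titled NFIA OE and control, against 1.39 and 4.34 on the primary arrays titled NFIA OE and control.

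**Figure D4:**
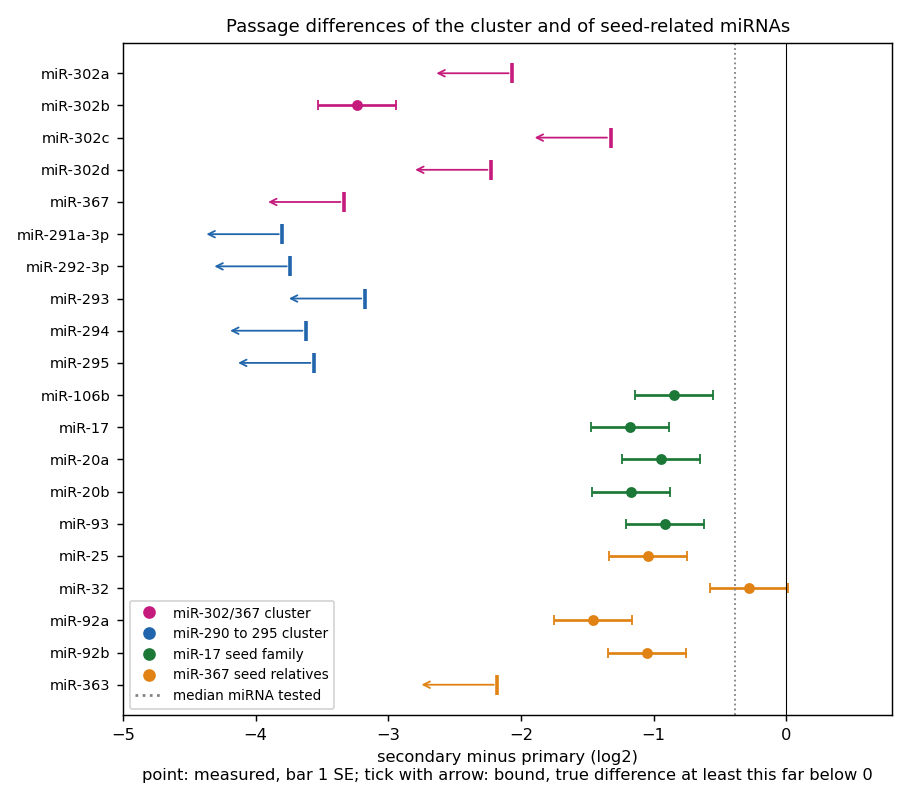
Difference between secondary and primary neurospheres (log2 of scaled intensity) for the miR-302/miR-367 strands, the miR-290/miR-295 members counted on both primary arrays, the miR-17 seed family and the miR-367 seed relatives. Points with bars are measured differences with 1 SE, which is pooled and the same for all. Ticks with arrows are bounds, and the dotted line is the median miRNA at -0.39. The 2 pluripotency clusters lie from -1.32 to -3.80, the tested relatives from -0.28 to -1.46, and the bound of miR-363 at -2.18.

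Markers of other lineages were read on the same arrays. The 4 neural miRNAs (miR-9, miR-9* and miR-125b-5p, and miR-124, which is best known from differentiated neurons) were well above background on all 4 arrays. Of these miR-9* (2.60), miR-9 (1.87) and miR-125b-5p (0.71) were called higher in secondary neurospheres and miR-124 (-1.28) lower. By passage 13.1% of all 153 miRNAs tested were called higher and 32.7% lower. Over 10 alternatives the calls of miR-9 and miR-9* held in 9 each and those of miR-125b-5p and miR-124 in 6 each. miR-124 was not called lower without scaling, with scaling on all probes or with the authors' processed values. The summed value of all 4, most of it miR-125b-5p, was 291.8 and 419 on the secondary arrays titled NFIA OE and control, against 119 and 102 on the primary arrays titled NFIA OE and control, in the authors' deposited table. The let-7 family, which accumulates as stem cells differentiate, had 6 of 7 tested members called higher (median 1.74), from let-7c at 2.71 to let-7e at 0.34 (not called, adjusted p = 0.356), with all 7 above 0 in 10 of 10 alternatives. The epithelial miR-200 family (0 of 5) and the blood markers miR-451, miR-142-3p and miR-223 (0 of 3) were well above background on 0 arrays. Of 4 endoderm markers miR-375 was counted on the primary array titled control alone, and of 8 mesenchymal, muscle and endothelial markers 2, 1, 2 and 1 were counted on the secondary arrays titled NFIA OE and control and the primary arrays titled NFIA OE and control.

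The 5 miRNAs nearest to miR-302b in pattern, of 152 compared by Euclidean distance between centred log2 levels over the 4 arrays, were miR-541 (distance 1.32), miR-410 (1.40), miR-495 (1.52), miR-300 (1.62) and miR-411* (1.67). Their Pearson correlations with miR-302b over the 4 arrays, which share one slide and one scaling, were 0.975 to 0.996. Their passage differences were -1.63 to -1.99, all called by limma (adjusted p from 6.20e-09 to 1.45e-06), as 32.7% of the 153 miRNAs tested were called lower. These 5 were picked for following miR-302b over the same arrays, so their correlations, differences and calls describe that choice and add no support. All had a smaller passage difference than miR-302b, which ranked 1 of 153 from the low end, by 1.24 on the log2 scale for miR-541.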

How the data were processed

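Cy3-labelled total RNA, small RNAs included, was hybridised to 1 one-colour Agilent mouse miRNA array per group, all on 1 slide, so position on the slide and group cannot be told apart. The deposited scanner files hold spot intensity, linear, detrended and background-subtracted with Agilent Feature Extraction 10.5.1.1 and without scaling to other arrays, per the file headers. In the authors' deposited table the values are linear intensity per miRNA. They matched the scanner's total gene signal over an array-wide constant (31.0, 33.7, 34.1 and 20.3 for the secondary arrays titled NFIA OE and control and the primary arrays titled NFIA OE and control), with no log or centring. Its column medians were 0.816, 0.700, 0.830 and 0.882. How the constants were set is not stated there.

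Control spots and outlier spots were left out (265 to 300 of 13000 per array flagged), none (0) was saturated, and spots were averaged per probe. Probes of a miRNA were averaged if well above background on every array compared. Fits used limma 3.58.1 in R 4.3.3, and the rest used Python 3.11.15. The fits were also run on simulated data with independent arrays and a common SD for all miRNAs. That setting cannot show how the fit behaves on sorted fractions that share a culture. All members were named. Also named were the 5 nearest in pattern and, from each comparison list, the tested members with the largest change each way. The rule for relatives named miR-302a-3p, and the seed of miR-302b-3p was used in its place. Members and lists were chosen with earlier results of these data known. Precision is limited by the number of arrays.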

Additional observations from a re-analysis of the deposited data

Results flagged for a closer look

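miR-302b was lower on the array titled NFIA OE than on the array titled control in primary neurospheres, at -0.60 (2 probes, or -0.55 on the 1 probe measured on all 4 arrays), and higher in secondary neurospheres, at 0.85. The opposite signs at the 2 passages drew attention to it. The difference between them, 1.41 on the common probe, was not tested, because 1 array per group leaves no residual for it. Without scaling the primary value on both probes was 0.04 and the secondary value 0.59, so the signs are opposite only where the arrays are scaled.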

How the results depend on the processing

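No paired analysis was possible because each group has 1 array and the titles carry no replicate numbers, beyond the passage term of the fit, which already sets the 2 sorted fractions of a passage against each other. The passage difference of miR-302b was -3.43 to -1.42 over 10 alternatives and -2.02 (adjusted p = 0.406, not called) when dim probes were not filtered. That setting is void as a test, since many dim probes sit at the floor of 1 unit with no residual. The call was also lost with median centring (-2.76). Leaving out 1 array at a time gave -3.66 to -2.81, with the call lost without the secondary array titled control. The title difference of miR-302b turned to -0.21 with no filter, -0.23 with normexp, -0.084 with quantile normalization and -0.012 with the authors' processed values.

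The background counts moved more. By passage 20 miRNAs were called higher and 50 lower. The authors' processed values gave 39 higher and 17 lower, scaling on all probes 25 and 5, no scaling 20 and 1, the median miRNA as zero 26 and 27, and median centring 0 and 0 (44 at an unadjusted p under 0.05 by limma). The void fit without a filter also gave 0 and 0. Leaving out 1 array gave 0 to 17 higher and 0 to 51 lower, both 0 without the secondary array titled control (47 at an unadjusted p under 0.05). By title 2 were called each way. Normexp gave 4 higher and 6 lower, quantile normalization 2 and 4, median of spots 2 and 1, scaling on all probes and no scaling 2 and 0 each, detection on at least 1 array 3 and 0, and median centring, no filter or the model without passage 0 and 0.

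On the secondary array titled control 0 members had a probe with all spots well above background and 2 passed the scanner's own call, against 1 in the rule used. The bounds, as log2, were -2.07, -1.32, -2.23 and -3.33 for miR-302a, miR-302c, miR-302d and miR-367. They became -1.32, -0.57, -1.48 and -2.58 with scaling on all probes, -1.11, -0.37, -1.27 and -2.38 without scaling, and -0.56, -0.23, -0.68 and -1.44 with normexp. All kept their direction. These strands were well above background on both primary arrays and on fewer secondary ones, so the way a bound is built largely fixed that direction. Signal over background limits the secondary values, since miR-302a and miR-302c lie below the lowest signal counted as above background on both secondary arrays.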

Other observations

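The probes of 1 strand differed widely in brightness. Of the 4 miR-302b probes, 2 were at 135 and 59.7 units on the primary array titled NFIA OE, and the other 2 at 1.58 and -1.84, near the negative controls. A miR-302d probe likewise stood at -2.12 on that array beside 105 for its brightest. Values of these silent probes were kept out of the test by the filter.

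In the authors' deposited table the secondary array titled NFIA OE was above the secondary array titled control for miR-302a (0.480 against 0.273), miR-302b (0.471 against 0.284), miR-302d (0.315 against 0.144) and miR-367 (1.25 against 0.764), while miR-302c ran the other way (0.0843 against 0.105). Of these strands miR-302b alone was counted on both arrays. miR-302c had 0 of 20 spots well above background on each, so its order there tells little. On the same arrays miR-294 stood at 1.05 against 0.404 and miR-291a-3p at 0.8002 against 0.317.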
